A study of Mus musculus with 11 samples.

Results

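The cytosolic ribosomal protein genes described here are the 83 protein-coding mouse genes named Rpl or Rps, with the stalk genes Rplp0, Rplp1 and Rplp2 and with Rpsa, out of 39179 gene identifiers in the deposited table. They were picked by symbol and gene type in the mouse GENCODE annotation (GRCm38), without use of their values. By name, 43 encode large subunit proteins, 31 small subunit proteins, 3 stalk proteins and 6 paralogs (Rpl3l, Rpl7l1, Rpl10l, Rpl22l1, Rpl39l and Rps27l). Poly(A) RNA, per the labels, was sequenced from WT and Mettl3-KO mouse embryonic stem cells (ESCs) and from embryoid bodies (EBs), cell aggregates formed from ESCs without added pluripotency factors. Mettl3 is the catalytic subunit of the enzyme that writes N6-methyladenosine into mRNA. The groups were WT ESCs (replicates A, B and C), Mettl3-KO ESCs (A, B and C), WT EBs (A and B) and Mettl3-KO EBs (A and B), all labelled strain C57BL/6. The ESCs of both genotypes grew in serum-free medium with LIF and inhibitors of GSK3 and MEK, and the EBs grew in serum medium for 8 to 21 days, with no day given per library. The allele and the number of clones behind each genotype are not given in the sources used here.

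A ribosome joins a small subunit, which reads the mRNA, to a large subunit, which forms the peptide bonds. Most proteins of each subunit are needed in equal numbers, and ribosomal protein mRNAs are among the abundant mRNAs of growing cells, ESCs included. Most of these mRNAs begin with a C and a run of pyrimidines, the TOP element, through which mTOR and LARP1 control their translation. Ribosomal protein mRNAs have also been copied back into the genome many times, which leaves intronless processed copies whose sequence is close to the parent mRNA.

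Gene reads per library numbered 3026837 to 15426894, and were lowest in both replicate C libraries (3026837 and 3075007). Mettl3 itself had normalized counts of 422, 392 and 425 in WT ESCs and of 138, 134 and 131 in KO ESCs, and of 399 and 368 in WT EBs against 154 and 147 in KO EBs. The KO libraries thus held lower Mettl3 values than every WT library. Replicate C of each ESC group, which per the labels was made with a protein assay, stood apart from the other 8 libraries. The summed normalized counts of 12 RNAs that lack a poly(A) tail (Rn7sk, Rmrp and replication-dependent histones among them) were 102 and 203 in replicate C and 279035 to 553723 elsewhere. Alignments that were not unique made up 28.7% to 30.6% of records in replicate C and 36.9% to 46.1% elsewhere. The 10 pluripotent cell markers summed to 40251 to 121816 in ESCs and 21413 to 34304 in EBs, with none at 0 in every library. The 10 extraembryonic endoderm markers summed to 119605 and 120297 in WT EBs and to 1761 and 1783 in KO EBs. The 10 fibroblast markers summed to 264 and 256 in replicate C and to 2599 to 12049 elsewhere.

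Sequence sharing is shown first because the values of many members moved with it. In a search of the annotated transcripts, 77 of the 83 members had at least 1 copy that matched 80% or more of the coding sequence at 90% identity or more, and 6 had none. There were 970 such copies, 630 of them in the deposited table, with a median of 8 copies per member and a maximum of 76 for Rpl21. The median member shared 90.3% of its coding 50-base words with another transcript. The pairs below are stretches of 60 bases of the coding strand (GRCm38, GENCODE), chosen where the aligned sequences differ most, with the bases that differ in capitals. They show a copy with few differences and a paralog that can be told from its parent.
Rpsa (plus strand of chromosome 9): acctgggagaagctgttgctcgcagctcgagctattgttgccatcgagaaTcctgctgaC
Rpsa-ps10 (processed copy of Rpsa, minus strand of chromosome 3): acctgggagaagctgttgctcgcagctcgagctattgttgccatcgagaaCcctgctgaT
Rpl10 (plus strand of chromosome X): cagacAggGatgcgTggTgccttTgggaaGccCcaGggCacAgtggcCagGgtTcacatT
Rpl10l (minus strand of chromosome 12): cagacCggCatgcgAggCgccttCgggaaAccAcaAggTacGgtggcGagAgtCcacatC
Over their whole coding sequences, Rps29 and Gm14303 were identical over 168 bases. Rpsa and Rpsa-ps10 differed at 6 of 885 bases. Rpl10 and Rpl10l differed at 98 of 642 bases.

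The members took a larger share of reads in replicate C than elsewhere. They held 2.30% and 2.13% of gene reads in WT ESC A and B, 10.7% in WT ESC C, 2.03% and 1.89% in KO ESC A and B and 9.67% in KO ESC C. In EBs they held 1.96% and 1.86% (WT) and 2.27% and 2.08% (KO). Between KO and WT ESCs the difference in this share was smaller than the spread over the letters, which is mostly that of replicate C (means 4.53% ± 4.45 and 5.03% ± 4.87, SD, n = 3 each, exact two-sided permutation p = 0.5, adjusted p = 0.67 over 8 comparisons of this kind). With 3 libraries against 3 the smallest p such a test allows is 0.1. Within letters KO was lower in 3 of 3 pairs (differences of -0.27, -0.24 and -0.99 percentage points, exact two-sided paired permutation p = 0.25, the smallest that 3 pairs allow). The EBs reached 2.17% ± 0.13 in KO and 1.91% ± 0.07 in WT (SD, n = 2 each), where the smallest p allowed, 0.33, was the p obtained.

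**Figure D1:**
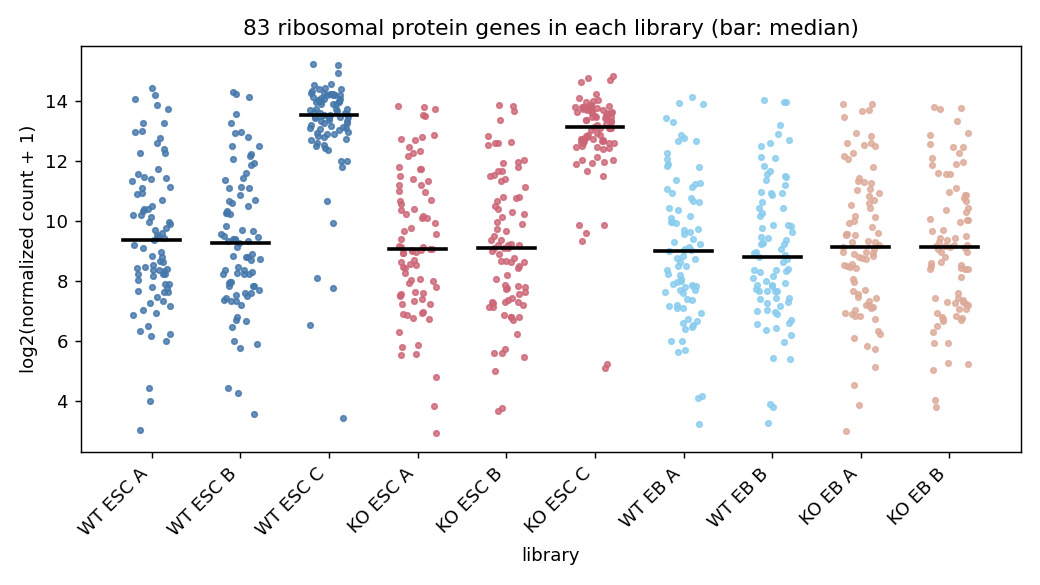
Each point is 1 of the 83 ribosomal protein genes in 1 library, on the scale log2(normalized count + 1), and the black bar is the median of the 83. The medians of the normalized counts were 11812 and 9076 in WT and KO ESC C, above the 448 to 660 of the other 8 libraries.

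The order of the members changed with the library as well as their sum. In replicate C the 77 members that are not paralogs lay close together, with a ratio of 1.89 (WT) and 1.97 (KO) between the upper and lower quartile of normalized counts per kilobase of mature transcript. In the other 8 libraries that ratio was 8.00 to 10.7. Genes below a normalized count of 100 numbered 2 of 83 in each replicate C library and 8 to 11 elsewhere. The 10 most-read members took 24.6% and 25.5% of member reads in replicate C and 58.7% to 63.9% elsewhere. Member levels in WT ESC A correlated with those of WT ESC B at Pearson r = 0.99 (log2 scale, across 83 genes, a description) and with those of WT ESC C at r = 0.51. WT and KO ESC C correlated at r = 0.97. The genes are not independent replicates. Exons of Rpl35 (66.2% of exon bases), Rpl23a (62.3%), Rpl24 (47.0%) and Rpl13a (35.4%) overlap other annotated genes, and since the strand setting of the counting is not given in the sources used here, their values are uncertain. Rpl24 had 10 to 28 reads in any library.

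The members with the highest mean level per kilobase included Rpl8, Rpl41, Rpl32, Rplp1 and Rps14. Rpl8, a large subunit protein of the peptidyl transferase region, had normalized counts of 22066, 20179 and 24471 in WT ESCs, 13645, 12860 and 14523 in KO ESCs, 18144 and 16759 in WT EBs and 15360 and 14297 in KO EBs. All 3 KO ESC values lay below all 3 WT ESC values, and replicate C lay beside A and B. Rpl41, the shortest of the proteins, had 14989 in A and 7773 in B of WT ESCs, and 15376 in C. Its A value was above its B value in every group. Per kilobase, Rpl8 (20247 on average), Rpl41 (19064) and Rpl32 (18769) were close to each other, and their order differed between libraries. These are means over all 10 libraries. In replicate C the highest were Rps4x (39133) and Rplp1 (38135) in WT, and Rpl32 (32448) and Rplp1 (31854) in KO. In the other 8 libraries 49 or 50 members had fewer counts than their own copies together.

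Per kilobase the lowest of the members that are not paralogs was Rpl24 in every library but KO EB A, where it was Rps29. Rps29 is a small subunit protein whose copy Gm14303 is identical to it in the coding sequence. Its normalized counts were 21 and 21 in WT ESC A and B, 8690 in WT ESC C, 27 and 31 in KO ESC A and B, 7377 in KO ESC C, 16 and 14 in WT EBs and 7 and 15 in KO EBs. Gm14303 held 1817 and 1527 in WT ESC A and B and 0 in both replicate C libraries. Rps16, another small subunit protein, had 63 and 53 in WT ESC A and B and 11127 in C. Rpl28, a large subunit protein, had 70 and 63, against 8920 in C. Replicate C was thus higher by over 7 on the log2 scale for these 3 genes (8.65, 7.56 and 7.04 in WT). Rpl29 (945, 826 and 978 in WT ESCs), Rps3 (18926, 19336 and 23835) and Rpl8 differed by 0.15, 0.32 and 0.21 on the same scale. With its copies summed Rpl29 differed by 1.27.

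Replicate C lay above the mean of A and B by more than 1 (log2) in both genotypes for 71 of 83 members (85.5%), against 12.7% of the 15781 genes tested. No member lay below by that much in both, against 24% of all genes tested. The median shift of the members was 3.91 in WT and 3.64 in KO. Over all genes tested it was -0.20 in both, and for 76 mitochondrial ribosomal protein genes, which have their own ribosome, 0.72 in WT and 0.91 in KO. The 12 members outside the 71 included Rpl4, Rpl8, Rpl29, Rpl32, Rpl41, Rps3, Rps14, Rps21 and the paralogs Rpl3l, Rpl10l and Rpl39l.

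The shift went with the share of a member's coding sequence that occurs elsewhere. The 8 members that shared 25% or less of their coding 50-base words had a median shift of 0.27 in WT and 0.66 in KO. The 13 members that shared over 25% to 75% had 1.61 and 1.57. The 33 members that shared over 75% but under 100% had 3.79 and 3.63, and the 29 members that shared all had 5.62 and 5.37. Across the 83 genes Spearman's rho between the share and the shift was 0.69 in WT and 0.65 in KO (Pearson r = 0.73 and 0.67), and rho with the number of copies was 0.48 in WT. These are descriptions across genes that share libraries. The part of sequence sharing in the shift was not tested, and neither was that of the RNAs without a poly(A) tail.

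**Figure D2:**
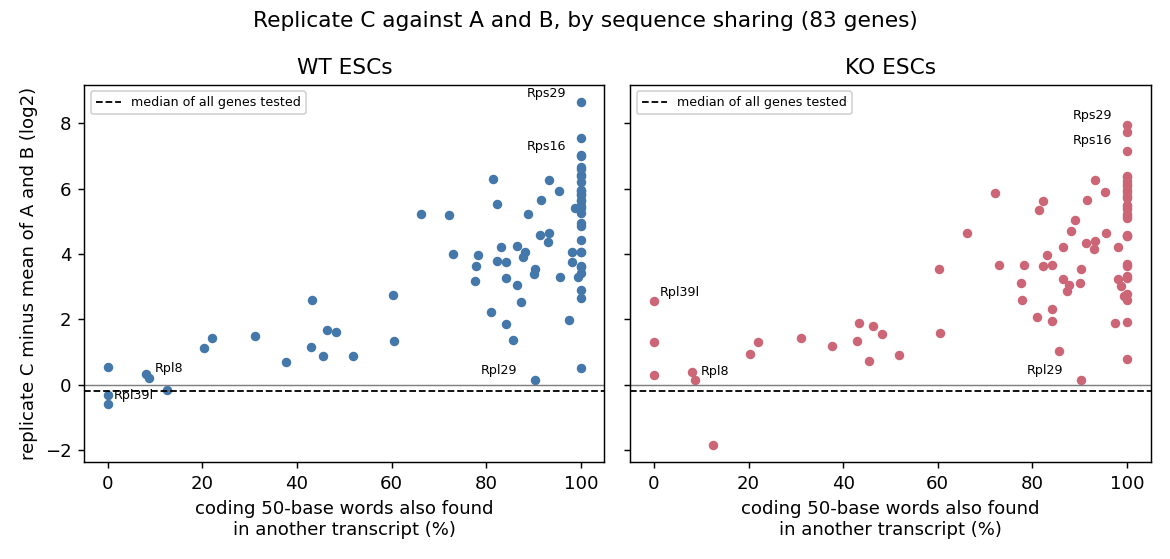
Each point is 1 of 83 genes. The x axis is the percentage of its coding 50-base words found in another annotated transcript, the y axis is replicate C minus the mean of A and B (log2(normalized count + 1)) in WT (left) and KO ESCs (right), and the dashed line is the median of all genes tested (-0.20). Members that share 25% or less lie between -0.59 and 1.43 in WT and between -1.85 and 2.56 in KO, and members that share every word reach 8.65 in WT and 7.96 in KO.

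The processed copies moved the other way. For 100 reads in members, the copies held 101.4 to 121.9 reads in the 8 other libraries and 1.43 (WT) and 0.43 (KO) in replicate C. In those 8 libraries, 49 or 50 members had fewer counts than their own copies together, against 1 member in each replicate C library. The copies of Rpl29 were higher in replicate C, with 533 and 435 in WT ESC A and B and 2322 in C. With the copies added, members took 4.01% to 4.97% of gene reads in the 8 libraries and 10.8% and 9.71% in replicate C. The median shift of replicate C after this addition was 1.40 in WT and 1.41 in KO, still above 0 in 79 and 81 of 83 families.

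The 3 copies with the highest mean count were Gm8730, Gm10275 and Rpl3-ps1. Gm8730 (chr8:102864845-102865798, minus strand, 98.7% identical to Rplp0 over the coding sequence) had 11201, 10237 and 7978 in WT ESCs and 9366, 8807 and 6 in KO ESCs. Rplp0, the stalk protein that anchors Rplp1 and Rplp2, had 3033, 2775 and 19468 in WT ESCs and 2550, 2548 and 29357 in KO ESCs. The sum of Rplp0 with all its copies was 29518 in WT ESC C and 29371 in KO ESC C. Replicate C thus gave a KO minus WT difference of 0.59 (log2) for Rplp0 alone, whereas its sums were nearly equal. Gm10275 (chr10:29698746-29699380, minus strand) is identical to Rpl12 in coding sequence and had 10237 and 11588 in WT ESC A and B against 13 in C. Rpl3-ps1 (chrX:13202571-13203780, plus strand, 99.8% identical to Rpl3) had 8996 and 9221 against 7.

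In the test over all genes, 1 of 83 members differed between KO and WT ESCs (limma, adjusted p under 0.05), against 2.38% of 15781 genes tested. This was Rpl10l, an intronless paralog of Rpl10 known from the testis, where it stands in for its X-linked parent. Its normalized counts were 303, 300 and 270 in WT ESCs and 3538, 3210 and 936 in KO ESCs. All KO values were above all WT values, and replicate C of KO lay between. It rose by 2.92 on the log2(normalized count + 1) scale (SE 0.47, limma adjusted p = 0.032, and 0.0070 with the replicate block described next). Without the block, leaving out any 1 ESC library of A or B lost this call (limma adjusted p = 0.15 without KO ESC A). In each of those fits 0 of the 15781 genes tested were called in this contrast. Rpl10l differed by 2.57 to 3.53 over the fits with 1 library left out. In EBs it had 208 and 158 in WT and 1492 and 1364 in KO, a difference of 2.97 (SE 0.57, limma adjusted p = 0.051) that missed the threshold of 0.05 and passed it with the block (limma adjusted p = 0.013). The parent Rpl10 had 222, 224 and 21951 in WT ESCs and 190, 157 and 14345 in KO ESCs.

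Replicate C was shifted in both genotypes of ESCs, so the fit with the letter as a block is given beside each count. Without the block the median SE of a member was 1.30 in the ESC comparison, and with it 0.10. With the block, 38 of 83 members differed between KO and WT ESCs, 1 higher and 37 lower (1.2% and 44.6%, against 14% and 15.3% of all genes tested). The median difference over the members was -0.27, against -0.02 over all genes tested. Taken from group means, this median changed with single libraries: it was 1.00 without WT ESC C and -1.46 without KO ESC C. It was -0.86 and -0.92 without WT ESC A or B, and 0.33 and 0.42 without KO ESC A or B. Scaling by total reads moved the median of all genes to 0.10 and that of the members to -0.14, so the members stayed below the median of all genes. In bulk RNA, fewer cells of a type and less RNA per cell cannot be told apart.

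By letter, KO was below WT for 62 of 83 members in ESC A, 64 in B and 76 in C (medians -0.25, -0.23 and -0.39), with all-gene medians of 0.00, -0.01 and 0.00. KO was below WT in all 3 letters for 56 of 83 members (67.5%), against 27.8% of all genes tested, and above in all 3 for 2 members, Rpl10l and Rps27l (2.41%, against 25.7%). Of 76 mitochondrial ribosomal protein genes, 26 were below in all 3 letters and 29 above. All 3 KO ESC values lay below all 3 WT values for 1 member, Rpl8, against 8.78% of all genes tested, and above for Rpl10l, against 9.23%. These counts say little about KO. For 71 of 83 members replicate C lay more than 1 (log2) above A and B in both genotypes, which leaves little room for full separation.

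Large subunit genes supplied 19 of the 37 lower calls with the block, out of 43 (against 15.3% of all genes tested). The 6 members with the largest called decreases were Rpl3, Rps3a1, Rpl27, Rpl38, Rpl26 and Rpl8. Of these, Rpl27, Rpl38 and Rpl26 lie on chromosome 11, where all genes tested had medians of -0.31, -0.33 and -0.03 in ESC A, B and C. Rpl3, which sits at the peptidyl transferase centre, had 2256, 2170 and 21810 in WT ESCs and 529, 662 and 14940 in KO ESCs, and fell by 1.45 (SE 0.30, limma adjusted p = 0.023 with the block). With its copies summed the difference was -0.30 (limma adjusted p = 0.057 with the block). Rpl8 fell by 0.70 (SE 0.05, limma adjusted p = 0.0036 with the block, and 0.052 without it). Rpl27 had 501, 442 and 7948 in WT ESCs and 261, 214 and 5602 in KO ESCs, with KO below WT in each letter. Rpl26, a binding partner of p53 mRNA, fell by 0.71 (SE 0.11), and Rpl38, known for the translation of Hox mRNAs, by 0.79 (SE 0.21).

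Of 31 small subunit genes, 16 fell with the block and none rose (against 15.3% and 14% of all genes tested). Rps3a1 had 1178, 1198 and 19659 in WT ESCs and 507, 547 and 13667 in KO ESCs, and fell by 0.96 (SE 0.15, limma adjusted p = 0.011 with the block). With its copies summed it fell by 0.31 (SE 0.08, limma adjusted p = 0.044 with the block). Rps3, which also has a role in DNA repair, has no copy by the search used here. It had 14740, 14806 and 19381 in KO ESCs, below WT in each letter, and fell by 0.35 (SE 0.05, limma adjusted p = 0.0094 with the block). In replicate C, KO was below WT for 31 of 31 small subunit genes, with differences from -0.90 to -0.04, and for 49.1% of all genes tested.

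Rpsa, the small subunit protein also known as the laminin receptor, did not follow this order in A and B. It had 773 and 678 in WT ESC A and B, 3429 and 2865 in KO ESC A and B, and 31003 (WT) and 25607 (KO) in C. Its copy Rpsa-ps10 (chr3:150072658-150073542), named after its values were seen, had 16167 and 14858 in WT and 3544 and 4237 in KO ESC A and B, and 10 and 3 in C. The gene was higher and the copy lower in KO in both letters. Their families summed to 17335 and 15867 in WT and 7782 and 7945 in KO ESC A and B. The difference for Rpsa alone was 1.32 (SE 1.5, limma adjusted p = 0.80) and with the copies summed it was -0.81. Rpl3 showed the opposite split, with Rpl3-ps1 at 10449 and 9685 in KO ESC A and B, and its family summed to 12384 and 11827 in WT and 11006 and 10371 in KO.

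**Figure D3:**
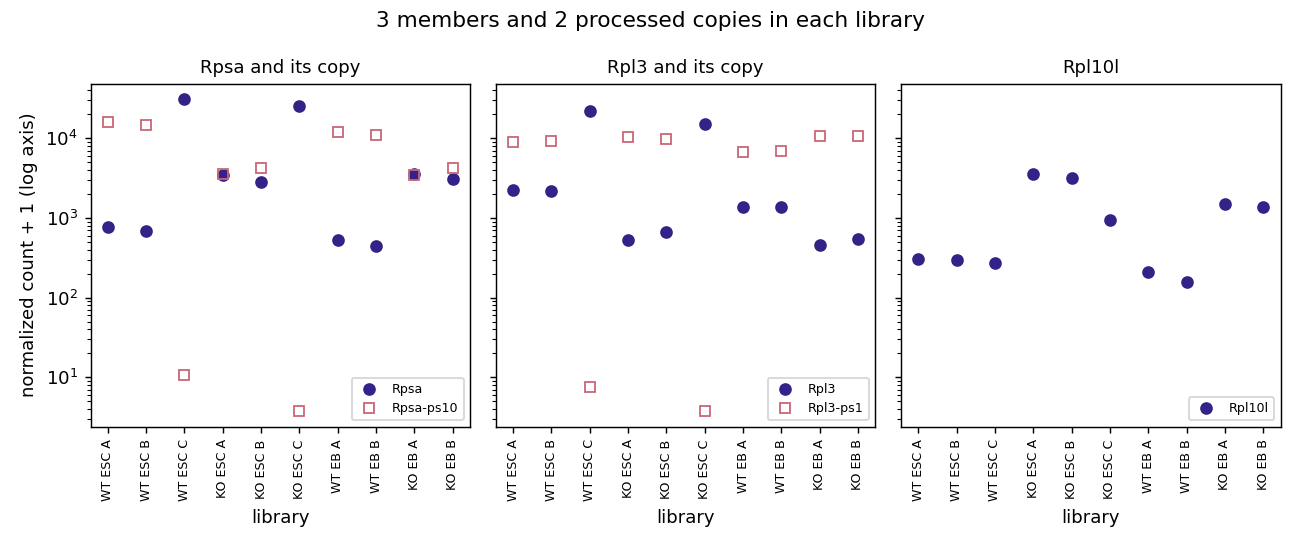
Normalized count + 1 (log axis) in each of the 10 libraries for Rpsa and Rpl3 (filled circles), their processed copies Rpsa-ps10 and Rpl3-ps1 (open squares) and Rpl10l. In both replicate C libraries the parent genes are at 14940 or above and the copies at 10 or below, and in the KO libraries of A and B Rpsa and Rpsa-ps10 lie within a factor of 2 of each other.

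When the copies were added to their members, 50 of 83 families differed between KO and WT ESCs with the block, 1 higher and 49 lower (against 14.3% and 15.6% of all genes tested). Of the 37 members that fell without this addition, 33 fell with it, and Rpl3, Rpl13, Rplp1 and Rps7 did not pass. Without replicate C, 38 members differed, 8 higher and 30 lower (against 27.4% and 27.8% of all genes tested), and 25 of the 37 were among the 30. The 3 stalk genes did not move as 1 group. With the block Rplp1 fell by 0.42 (SE 0.08), and Rplp2 (327, 193 and 9427 in WT ESCs, 308, 229 and 6635 in KO ESCs) had no common direction over the letters.

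The paralogs differed among themselves. Rpl7l1, a relative of Rpl7, had 1461, 1541 and 4058 in WT ESCs and 1156, 1202 and 2925 in KO ESCs, and fell by 0.39 with the block (SE 0.06). Rpl22l1, which can replace Rpl22, had 153, 184 and 1634 in WT ESCs and 148, 164 and 775 in KO ESCs. Rpl39l, a relative of Rpl39 with high expression in the male germ line, had 326, 331 and 217 in WT ESCs and 106, 111 and 644 in KO ESCs. KO was lower in A and B and higher in C, so the 3 letters disagreed on the sign. Rpl3l, the form of Rpl3 found in muscle, had 15, 11 and 10 in WT ESCs, where the count in C rested on 3 reads. Rps27l, a p53 target, had 1127, 1229 and 3597 in WT ESCs and 1213, 1357 and 3797 in KO ESCs. The similarly named Rps4l is annotated as a pseudogene and is no member.

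**Figure D4:**
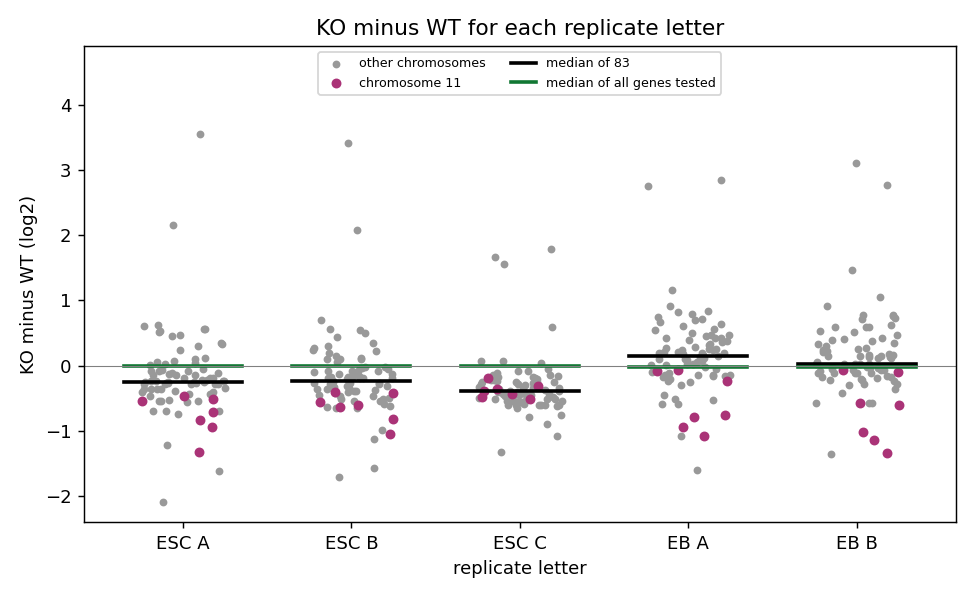
KO minus WT (log2(normalized count + 1)) for the 83 genes in each replicate letter. Black bars are the medians of the 83 (-0.25, -0.23, -0.39, 0.14 and 0.03), green bars those of all genes tested, and the purple points, the 7 members on chromosome 11, lie below 0 in each of the 5 letters.

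In EBs 0 of 83 members passed the test of KO against WT, against 1.84% of all genes tested, with 1 at an unadjusted p under 0.05 in limma. Rpl10l was the 1 call in both edgeR and DESeq2 (against 1.78% and 9.83%). The spread in the limma test comes from all 10 libraries. The median SE of a member was 1.59, and 0.13 without ESC replicate C. Without ESC replicate C 33 members were called (39.8%, against 51.9% of all genes tested). The EB libraries alone gave 28 (33.7%, against 49.2%). With the block, 20 members differed, 13 higher and 7 lower (15.7% higher, against 9.27% of all genes tested, and 8.43% lower, against 13.4%). The median difference was 0.09, and leaving out 1 EB library moved it from -0.0054 (without KO EB A) to 0.21 (without KO EB B). Besides Rpl10l and Rpsa, the members with the largest called increases included Rpl5, Rps12 and Rps21. Rpl5, part of the 5S particle that binds MDM2, had 225 and 275 in WT EBs and 502 and 572 in KO EBs (1.10, SE 0.21, limma adjusted p = 0.025 with the block). Rps21, a small subunit protein, had 3832 and 3013 in WT and 6209 and 4923 in KO EBs, and Rps12 had 227 and 201 against 373 and 340. For all 3 of these genes the 2 KO values lay above the 2 WT values. Of the 13 higher calls, 6 were also made among the 11 higher calls with copies summed (against 9.44% of all genes tested), and Rpl5 and Rpsa were not among them. With copies summed Rpl5 had a difference of 0.02 (SE 0.06).

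The 6 members with the largest called decreases in KO EBs were Rpl3, Rpl38, Rpl27, Rpl19, Rps27a and Rpl7. Of these, Rpl38, Rpl27, Rpl19 and Rps27a lie on chromosome 11, where all genes tested had medians of -0.45 and -0.46 in EB A and B. With copies summed Rpl3 turned to 0.35 (SE 0.11, limma adjusted p = 0.073 with the block) and Rpl38 fell by 0.47 (SE 0.09) in place of 1.14. Rpl27 had 393 and 331 in WT and 186 and 150 in KO EBs, and fell by 1.10 (SE 0.15, limma adjusted p = 0.011 with the block). Rpl19 had 357 and 311 against 207 and 154. Rps27a, which is made as a fusion with ubiquitin, had 192 and 201 against 114 and 134. Rps27l, with 998 and 1237 against 733 and 833, fell by 0.51 (SE 0.08, limma adjusted p = 0.013 with the block). Both KO EBs lay below both WT EBs for 20 of 83 members, against 38.9% of all genes tested, and above for 32, against 36%. The extraembryonic endoderm markers differed between the same groups, as given above, with 10 of 10 lower in KO EBs in the test over all genes. Their part in the members' differences was not tested.

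The members on chromosome 11 were lower in KO in every letter. These 7 genes (Rpl19, Rpl23, Rpl23a, Rpl26, Rpl27, Rpl38 and Rps27a) had median differences of -0.72, -0.60 and -0.39 in ESC A, B and C and of -0.75 and -0.60 in EB A and B. The 76 members elsewhere had -0.23, -0.20, -0.39, 0.19 and 0.12. All 1344 genes tested on chromosome 11 had medians of -0.31, -0.33 and -0.03 in ESC A, B and C and of -0.45 and -0.46 in EBs, and genes on the other chromosomes 0.02, 0.02, 0.00, 0.01 and 0.01. In replicate C the chromosome 11 members lay beside the other members. The chromosome was picked after values were seen.

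Between WT EBs and WT ESCs 0 of 83 members passed, against 2.48% of all genes tested, with 1 at an unadjusted p under 0.05 in limma and no call in edgeR or DESeq2. The median difference was -1.70 with all 3 ESC libraries, -0.40 with the block and -0.36 without replicate C. The block takes letters within ESCs and within EBs, so its EB against ESC values are read at letter A. With the block 12 members fell and none rose (14.5% lower, against 4.44% of all genes tested). Read at the mean of A and B, 28 fell and none rose (against 9.49%). Without replicate C 37 fell and none rose (44.6%, against 23.7%). By letter, EBs were below ESCs for 78 of 83 members in A and 76 in B (medians -0.36 and -0.32), and both EBs lay below WT ESC A and B for 59 members (71.1%, against 37.6%). The members with the largest called decreases with the block included Rps7, Rpl21, Rpl30, Rps15a and Rps12. Rps7 had 217 and 191 in WT ESC A and B and 135 and 118 in WT EBs, and fell by 0.73 with the block (SE 0.13, limma adjusted p = 0.032), or by 0.69 at the mean of A and B (SE 0.10, limma adjusted p = 0.013).

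Between KO EBs and KO ESCs 0 of 83 members passed, against 0.805% of all genes tested, with none at an unadjusted p under 0.05 in limma and none called by edgeR or DESeq2. With the block 3 differed (3.61% of members, against 8.33% of all genes tested). Rps21 rose by 0.45 (SE 0.09), Rps27l fell by 0.76 (SE 0.09) and Rpl7 fell by 0.44 (SE 0.08). Read at the mean of A and B, 8 differed, 5 higher and 3 lower (against 18.1%), and these genes had 0.47 (SE 0.07), -0.71 (SE 0.07) and -0.43 (SE 0.06). By letter the medians were -0.05 and -0.06, with EBs below ESCs for 49 members in A and 46 in B.

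The difference of the KO effects between EBs and ESCs was tested directly. None of 83 members passed, against 0.475% of all genes tested, with none at an unadjusted p under 0.05 in limma. With the block 11 passed, 10 with a higher value in EBs (12%, against 2.81% of all genes tested) and 1, Rps27l, with a lower value (against 4.99%). Without replicate C 23 passed, 22 of them higher and 1 lower (against 16.3% and 19.9% of all genes tested). The comparison shares no library between its ESC and EB parts. Rps12 had KO minus WT differences of -0.27, -0.34 and -0.55 in ESC A, B and C and of 0.72 and 0.76 in EB A and B, a difference of 1.12 (SE 0.13, limma adjusted p = 0.016 with the block). Rpl8 was lower in KO in all 5 letters, by less in EBs (-0.24 and -0.23) than in ESCs (-0.69, -0.65 and -0.75).

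**Figure D5:**
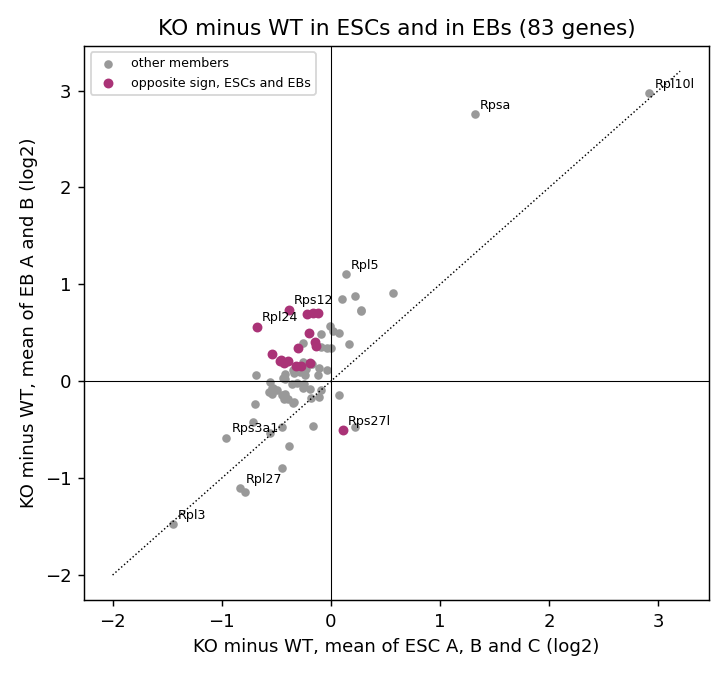
KO minus WT (log2(normalized count + 1)) of the 83 genes, as the mean of ESC A, B and C (x axis) and of EB A and B (y axis). The dotted line marks equal differences, and the 18 purple genes (21.7%, against 10.1% of all genes tested) had 1 sign in all 3 ESC letters and the opposite sign in EBs with no overlap between the genotypes; Rps27l is the one among them that is higher in KO ESCs.

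A smaller shift ran between letters A and B. A was above B in all 4 groups for 37 of 83 members (44.6%, against 24.3% of all genes tested) and below in all 4 for 12 (14.5%, against 21.4%). Rpl18, a large subunit protein, had A minus B differences of 1.11, 0.91, 0.95 and 0.85 (log2) in WT ESCs, KO ESCs, WT EBs and KO EBs. Rpl41 had 0.95, 0.91, 0.82 and 0.95, and Rplp1 0.78, 0.72, 0.62 and 0.86. Across the 83 genes these differences correlated between groups at Pearson r = 0.55 to 0.77, and their mean over the groups correlated with the GC content of the mature transcript at Spearman's rho = 0.49, with the share of coding 50-base words found elsewhere at 0.01. The part of GC content was not tested.

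Start sites were looked at for the TOP element after KO was seen below WT for most members in each ESC letter. The part of this element in the KO differences was not tested. RefSeq promoters (GRCm38.p6) were found for 63 of the 83 members. A C followed by at least 4 bases that are each C or T, on the sense strand and beginning at the annotated start, stood at 13 of 63 members (20.6%), against 3.01% of 27025 genes with a promoter and 0 of 69 mitochondrial ribosomal protein genes. Within 5 bases of the start it stood at 29 of 63 members (46%), against 21.2% of all genes. Both counts rest on annotated starts, and the starts used in these cells were not measured here. A match is a description of these letters, and none of the 6 paralogs had it at the start itself. The windows below run from 10 bases before to 20 after the annotated start, for the 4 members with the run at the start and the highest mean count and for 2 paralogs without it, with the run in capitals.
Rps21 (chr2:180257369-180257398, plus strand): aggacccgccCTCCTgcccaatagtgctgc
Rpl14 (chr9:120571507-120571536, plus strand): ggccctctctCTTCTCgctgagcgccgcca
Rps18 (chr17:33955646-33955675, minus strand): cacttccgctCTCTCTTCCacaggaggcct
Rps15a (chr7:118116128-118116157, minus strand): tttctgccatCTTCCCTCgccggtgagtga
Rpl10l (chr12:66284382-66284411, minus strand): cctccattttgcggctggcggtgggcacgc
Rpl3l (chr17:24727816-24727845, plus strand): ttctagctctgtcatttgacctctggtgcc

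Related gene lists are given by their counts, to be read against the 14% of all genes tested that rose and the 15.3% that fell in KO ESCs with the block. Of 17 elongation factors and other genes with TOP mRNAs, 0 passed in KO against WT ESCs, and with the block 0 rose and 11 fell (median -0.37). Npm1, a nucleolar chaperone, fell by 0.83 (SE 0.12), Naca, part of the nascent chain complex, by 0.80 (SE 0.10) and Btf3, its partner, by 0.64 (SE 0.10), each with the block. Eef1a1, the elongation factor that delivers tRNAs, had 38408, 38469 and 104492 in WT ESCs and 42205, 41216 and 97217 in KO ESCs, without a common direction. In EBs it rose by 0.72 with the block (SE 0.08), where 9.27% of all genes tested rose.

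Of 4 ribosomal protein genes named otherwise, Rack1, a scaffold on the small subunit, fell in KO ESCs without the block by 0.69 (SE 0.13, limma adjusted p = 0.046, with 1.07% of all genes tested lower). It had 30518, 29618 and 27367 in WT ESCs and 17122, 17863 and 19275 in KO ESCs. With the block Fau, made as a fusion with a ubiquitin-like protein, fell by 0.80 (SE 0.15). Of 5 snoRNA host genes, 2 rose in KO EBs without the block, where 0.469% of all genes tested rose. Gas5, itself a TOP transcript, rose by 1.19 (SE 0.21, limma adjusted p = 0.036) and Snhg6 by 1.92 (SE 0.29, limma adjusted p = 0.026). Gas5 fell by 1.09 (SE 0.19, limma adjusted p = 0.028) in WT EBs against WT ESCs without the block, where 0.475% of all genes tested fell. Snhg5 fell by 1.10 and Snhg3 by 0.70 in KO ESCs with the block.

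Ribosome assembly factors had 0 of 30 called in KO ESCs, and with the block 2 rose and 11 fell. Ebna1bp2 fell by 0.92, Bop1 by 0.77 and Nmd3, the export adaptor of the large subunit, by 0.72, whereas Rrs1 rose by 0.85 and Nop2 by 0.50. Of 14 RNA polymerase I genes 5 rose and 2 fell, and of 12 growth control genes Tsc1 rose by 0.59, Larp1 by 0.43 and Maf1 fell by 0.57, all with the block. Mitochondrial ribosomal protein genes split with the block, 18 higher and 16 lower of 76 in KO ESCs, with a median of 0.00.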

How the data were processed

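Per the submitters' processing notes, reads were processed with CASAVA 1.8.2, Bowtie, TopHat2 2.0.10, HTSeq 0.6.0 and DESeq on mm10; the annotation release, strand setting and treatment of multiply aligned reads are not given in the sources used here. The values of the deposited table are a normalized signal: counts per gene over a size factor of each library, judged from the values, since 100% of them became whole reads (tolerance 0.01) once divided by the smallest value of their column. The 5 summary lines that HTSeq appends stayed out. The fibroblast sample named in the series was not analysed here.

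Symbols come from GENCODE M21 and matched 37607 of 39179 identifiers. The 15781 genes whose mean reached 10 (all 83 members among them) were fitted with limma 3.58.1 on log2(value + 1), with 4 group means, trended and robust variances and 5 contrasts. Tests were two-sided, with Benjamini-Hochberg adjustment over all genes and a threshold of 0.05 (6 residual degrees of freedom, 3 with the replicate block, which takes letters within ESCs and within EBs and reads EB against ESC contrasts at letter A). The script was tested on simulated data for KO against WT ESCs without the block. Those data held no shift of replicate C and no letter effect, and the fit with the block was not simulated. The labels call the libraries biological replicates, and p-values measure the spread between them as labelled. The spread used for the EB contrasts comes from all 10 libraries.

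Deviations from the group means of WT and KO ESC libraries with the same letter correlated over all genes at 0.84 (A), 0.83 (B) and 0.86 (C). In EBs the value was 0.37. With unlike letters, WT ESC A and KO ESC B correlated at 0.81, as did WT ESC B and KO ESC A. Pairs of A with C gave -0.84 and -0.85. The ESC values thus set replicate C apart, and by themselves they do not pair A with A or B with B. Alternatives were edgeR 4.0.16 and DESeq2 1.42.0 on the recovered counts, other scalings, filters and pseudocounts, the replicate block, replicates left out and, added after seeing the data, copies summed into their member. Copies were found with BLAST 2.17.0 (coding sequence, 90% identity, 80% cover), and levels per kilobase use the mature bases of 1 transcript per gene.

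Members and lists were chosen with earlier results of these data known. Every member could be named; per contrast the 6 members with the largest called change in each direction, the 6 with the highest count per kilobase, all paralogs, and up to 3 called genes per direction, per list and contrast outside the members were named, with the 3 most abundant copies. Some items that this rule names are not reported here.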

Additional observations from a re-analysis of the deposited data

Results flagged for a closer look

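For 18 members the KO libraries lay on one side of WT in ESC replicates A, B and C and on the other side in EBs without overlap (21.7%, against 10.1% of all genes tested). The main test of the difference of the KO effects (limma) passed for none of them. For 17 of them KO was lower in ESCs and higher in EBs. Among large subunit genes the differences of the effects (EBs minus ESCs, log2) were 0.55 for Rpl13a, 0.64 for Rpl15, 0.92 for Rpl21, 1.24 for Rpl24, 0.70 for Rpl27a, 0.48 for Rpl35a, 0.67 for Rpl37 and 0.50 for Rpl39. The paralog Rpl22l1 had 0.62. Among small subunit genes they included 0.68 for Rps10, 1.12 for Rps12, 0.38 for Rps15a, 0.82 for Rps21 and 0.60 for Rps24. The paralog Rps27l went the other way, with -0.62, higher in KO ESCs and lower in KO EBs. With the replicate block the difference passed for Rpl13a, Rpl15, Rpl21, Rps12, Rps21 and Rps27l, among others. With copies summed 10 of the 18 kept the pattern. Rpl24 (-0.41 and -0.49 in EB A and B) and Rpl27a (-0.14 and -0.10) were then lower in KO in all 5 letters, and Rpl21 was higher in KO in ESC A and B (0.17 and 0.07). Rpl24 had 10 to 28 reads in any library.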

How the results depend on the processing

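Counts of called members depended on how replicate C was treated. The count was 1 in KO against WT ESCs and 0 in the other contrasts. With the replicate block it was 38 for the ESC genotypes, 20 for the EB genotypes, 12 for the EB step in WT, 3 for the EB step in KO and 11 for the difference of the KO effects. With ESC replicates A and B alone these were 38, 33, 37, 18 and 23 (45.8%, 39.8%, 44.6%, 21.7% and 27.7% of members, against 55.2%, 51.9%, 46.1%, 47.3% and 36.1% of all genes), and with the replicate block added, chosen after seeing the data, 62, 53, 59, 41 and 53 (74.7%, 63.9%, 71.1%, 49.4% and 63.9%, against 70.7%, 67.8%, 58.6%, 58.4% and 57.6%). With the replicate block read at the mean of A and B (also chosen after seeing the data) the EB steps gave 28 in WT and 8 in KO, and with letters shared by ESCs and EBs the counts were 43, 33, 35, 18 and 24 (against 38.2%, 32%, 28.5%, 28.2% and 17.2% of all genes). With copies summed and the replicate block, also chosen after seeing the data, they were 50, 23, 21, 3 and 17 (against 29.8%, 23.1%, 9.99%, 8.55% and 8.19% of all genes). Copies summed without the block gave 1 in KO against WT EBs (against 1.93% of all genes). In KO against WT ESCs the count was 0 without a filter on low values and 0 with the libraries of the contrast alone (against 0.147% and 0% of all genes). It was 2 with TMM scaling and 2 with DESeq2 (against 2.27% and 12.4%). In KO against WT EBs it was 1 with a pseudocount of 10 and 1 without a filter (against 2.84% and 4.42% of all genes). There it was 1 with edgeR and 1 with DESeq2 (against 1.78% and 9.83%). With the libraries of that contrast alone it was 28 (33.7% of members, against 49.2% of all genes). Leaving out KO_ESC replicate C gave 3 in KO against WT ESCs (3.61% of members, against 13.8% of all genes). Leaving out WT_ESC replicate C gave 2 (2.41%, against 8.52%). Leaving out any 1 ESC library of A or B gave 0 there, with 0% of all genes called. Over the fits with 1 ESC library left out, KO against WT EBs gave 0 to 1 (against 0.564% to 7.36% of all genes). KO EBs against KO ESCs gave 0 to 1 (against 0% to 6%), and WT EBs against WT ESCs 0 to 2 (against 0.722% to 7.64%). With copies summed, with or without the block, Rpl3 in EBs changed sign to 0.35, and Rpsa to -0.62 in EBs and -0.81 in ESCs. DESeq2 gave Rpsa -0.029 in ESCs. The cause was not tested. Replicate C held 3026837 and 3075007 gene reads, so 1 read there is worth 3.29 and 2.78 normalized counts, and low genes such as Rpl3l (3 and 12 reads) are imprecise.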
